A study of Mus musculus with 5 samples.

Results

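The 36 cell division genes described here encode proteins that copy DNA and pull its copies apart. They were chosen by gene symbol from a list of replication and mitosis genes, by a rule that uses no measured value, and all 36 were found among the 17818 gene symbols of the table. They fall into 7 roles: the MCM helicase (6 genes), the replication clamp and nucleotide supply (4), cyclins, kinases and their destruction (9), kinetochore and checkpoint (5), spindle (4), cytokinesis (5) and chromosome structure (3). Hearts of male mice, all with a bone marrow transplant, gave the messenger RNA that was sequenced. The 3 groups were a WT control given vector (1 library), Tet2+/- mice given vector (2 libraries) and Tet2+/- mice given oridonin, a plant diterpenoid (2 libraries). Tet2 encodes a dioxygenase that oxidises 5-methylcytosine, and blood cells that lose a copy of it can expand as clones. Hearts came from 12 months after transplantation, and every sample is labelled with 2 months of treatment. The sample titles, however, say 1 month for the WT library and each replicate 1, and 2 month for each replicate 2. Replicate numbers here are those in the titles, so replicate and any difference in treatment time cannot be told apart. All groups share the transplant, and vector was given to both the WT and the first Tet2+/- group. Not stated in the labels are the age of the mice, whether the genotype is that of the marrow, the host or both, and whether a library came from 1 mouse or a pool. A heart after a marrow transplant still holds its own muscle, vessel and matrix cells, so that these libraries read host cells together with blood cells.

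Before S phase, the MCM proteins are loaded on DNA as a ring-shaped helicase, and PCNA then tethers the polymerases to the template. Cyclins A and B with CDK1 drive entry into mitosis, kinetochore proteins attach chromosomes to the spindle, and the checkpoint holds back the anaphase-promoting complex until all are attached. Most heart muscle cells of an adult mouse have left the cell cycle, and the division that goes on in the organ is mainly that of endothelial, stromal and blood-derived cells. Genes of the mitotic machinery are read mainly in the G2 and M phases, whereas PCNA also serves DNA repair.

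Libraries held between 14574823 and 15535778 counts, so that 1 count was worth close to 0.0667 CPM (counts scaled to the library total) and a floor of 3 counts lay between 0.193 and 0.206 CPM. In the table, each Tet2 column blends 75% of its own library with 25% of its partner replicate on the log2 scale. Levels below have that blend undone. The WT column gave whole counts for only 33.48% of genes, so it too is not the plain counts of 1 library. With no partner column it was used as deposited, WT counts below are those of that column, and WT has no replicate. Heart muscle markers summed to between 51000 and 63300 CPM with none of the 9 at 0. Mitochondrially encoded genes made up 23.6% of the WT counts and 26.8% to 30.2% of those in the Tet2 libraries. Tet2 vector replicate 1 stood apart by its atrial markers, which summed to 1090 CPM against 17.6 to 91.7 CPM in the other 4 libraries. Libraries also differed by gene length. In Tet2 vector, the median log2 difference of replicate 1 from replicate 2 went from -0.19 in the shortest of 4 equal bins of tested genes by exon length to 0.51 in the longest, and in oridonin from 0.09 to -0.27. Nothing says that replicates came from separate mice, and the p-values therefore reflect spread among these samples alone, which may be technical. That spread may also include any difference that goes with the month in the titles. A lower level in a bulk library can come from fewer cells of a type or from less RNA per cell, and the 2 cannot be told apart here.

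Most of the 36 genes were scarce. The filter of at least 1 CPM in at least 2 libraries was passed by 22 genes, and the other 14 were Cdk1, Ccnb1, Ccnb2, Plk1, Aurkb, Ube2c, Bub1, Cenpe, Birc5, Kif11, Tpx2, Nusap1, Kif23 and Prc1. In the WT library 21 of the 36 were under 1 CPM and 9 had at most 3 counts, against 15 and 12 under 1 CPM and 2 and 3 at no more than 3 counts in the oridonin libraries. The 2 Tet2 vector libraries had 16 and 21 genes under 1 CPM and 4 and 6 at 3 counts or fewer. Compared per length, as CPM per kilobase of exon and taking the median of the 5 libraries, Pcna was highest at 13.7. Stmn1, which encodes a protein that destabilises microtubules, followed at 4.77, and Mcm4 at 2.50, Hmgb2 at 2.31, Mcm6 at 2.19 and Mcm7 at 2.03 came next. On the same per-length scale the proliferation marker Mki67 was at 0.109, Top2a at 0.106, Cdk1 at 0.106 and Ccnb1 at 0.0158. Most replication genes, Stmn1 and Hmgb2 led the order and most genes of mitosis lay lower. The split was not clean, as Rrm2 at 0.475 and Tyms at 0.307 lay under Cenpf at 0.836 and Cdc20 at 0.526. Top2a and Cdk1 were level, and Mcm2 and Mcm5, both at 1.03, were level as well.

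**Figure D1:**
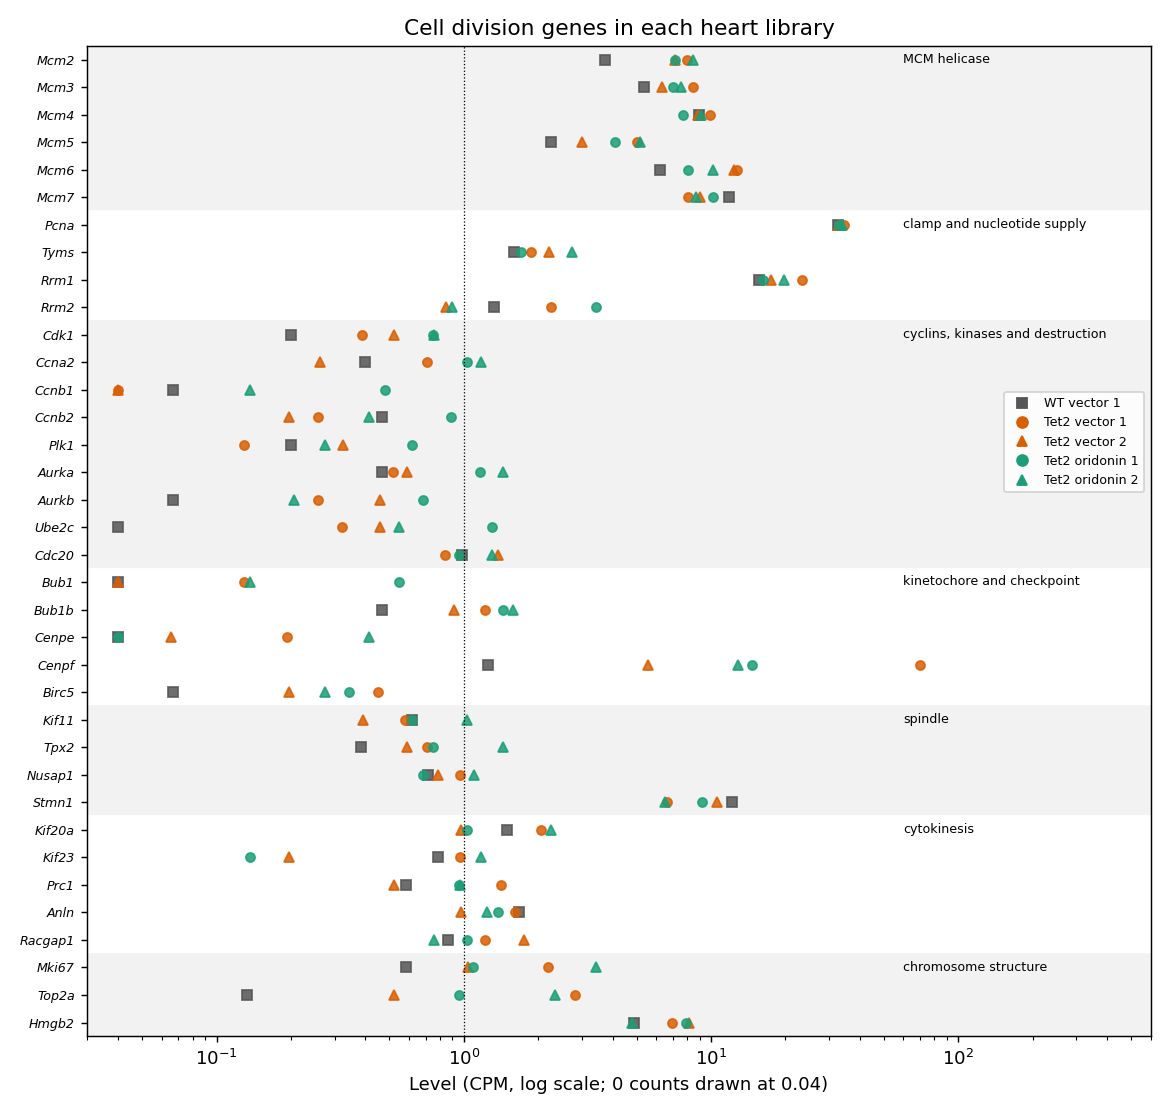
Level of each of the 36 genes in each of the 5 heart libraries, on a log axis in CPM with genes grouped by role; the dotted line marks 1 CPM and a count of 0 is drawn at 0.04 CPM. Pcna lies between 32.8 and 34.6 CPM, while Cdk1, Ccna2, Ube2c and Aurka lie further right in both oridonin libraries (green) than in the other 3.

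Promoters of genes that work in S phase and in mitosis are known to carry different elements. E2F sites mark S-phase genes, and CCAAT boxes with a cell cycle homology region (CHR) mark genes of G2 and M phase. RefSeq promoter windows of 300 bases (250 upstream and 50 downstream of the start, GRCm38.p6) were matched for 30 of the 36 genes, in 32 windows, and no window was matched for Aurkb, Ccna2, Kif20a, Mcm4, Stmn1 and Tpx2. Motifs were searched on both strands: CCAAT, the CHR as TTTGAA or TTCGAA, and the E2F site as TTCCCGC or TTGGCGC. On the other strand CCAAT reads ATTGG, which can share letters with TTGGCGC. A match describes letters and not a bound site. CCAAT stood in 87.5% of the 32 windows against 37.4% of all 32851 promoter windows. The CHR stood in 62.5% against 19.2%, the E2F letters in 28.1% against 6.81%, and CCAAT together with a CHR in 59.4% against 7.52%. The 22 windows of mitosis, cytokinesis and chromosome genes held a CHR in 81.8% and E2F letters in 13.6%, and the 10 windows of MCM, clamp and nucleotide genes held them in 20% and 60%. Shown are the 250 bases upstream of 6 genes on which the comparisons below turn, 4 of mitosis that were higher in both oridonin than in both vector libraries and 2 of the helicase that were lowest in WT. They read 5′ to 3′ on the strand of the gene, with the searched motifs in capitals.
Cdk1 (chr10:69352913-69353162, minus strand): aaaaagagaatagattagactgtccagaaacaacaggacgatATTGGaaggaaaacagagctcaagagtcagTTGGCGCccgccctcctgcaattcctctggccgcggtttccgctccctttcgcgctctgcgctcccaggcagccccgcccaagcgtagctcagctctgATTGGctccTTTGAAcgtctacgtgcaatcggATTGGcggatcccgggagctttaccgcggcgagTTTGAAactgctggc
Ccnb2 (chr9:70421555-70421804, minus strand): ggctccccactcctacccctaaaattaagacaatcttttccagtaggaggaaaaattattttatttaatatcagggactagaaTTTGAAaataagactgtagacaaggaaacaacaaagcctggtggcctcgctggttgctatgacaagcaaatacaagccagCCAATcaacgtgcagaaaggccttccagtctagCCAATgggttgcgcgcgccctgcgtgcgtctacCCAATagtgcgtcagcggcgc
Aurka (chr2:172370571-172370820, minus strand): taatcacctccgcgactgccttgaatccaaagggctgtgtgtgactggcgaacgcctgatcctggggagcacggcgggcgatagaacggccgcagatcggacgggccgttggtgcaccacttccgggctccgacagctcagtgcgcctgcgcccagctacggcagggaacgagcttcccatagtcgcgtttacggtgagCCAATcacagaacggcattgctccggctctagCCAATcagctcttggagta
Ube2c (chr2:164769679-164769928, plus strand): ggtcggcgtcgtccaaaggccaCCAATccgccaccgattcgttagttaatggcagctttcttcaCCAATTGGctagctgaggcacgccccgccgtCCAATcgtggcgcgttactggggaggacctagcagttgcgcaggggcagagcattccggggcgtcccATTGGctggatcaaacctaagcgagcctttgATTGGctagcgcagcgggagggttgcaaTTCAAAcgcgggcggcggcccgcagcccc
Mcm2 (chr6:88898781-88899030, minus strand): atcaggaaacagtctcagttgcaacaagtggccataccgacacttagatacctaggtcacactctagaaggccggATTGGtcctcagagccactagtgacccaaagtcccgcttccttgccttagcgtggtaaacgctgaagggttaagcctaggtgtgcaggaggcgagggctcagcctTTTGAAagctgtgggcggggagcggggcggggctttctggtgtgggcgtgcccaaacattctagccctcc
Mcm6 (chr1:128359706-128359955, minus strand): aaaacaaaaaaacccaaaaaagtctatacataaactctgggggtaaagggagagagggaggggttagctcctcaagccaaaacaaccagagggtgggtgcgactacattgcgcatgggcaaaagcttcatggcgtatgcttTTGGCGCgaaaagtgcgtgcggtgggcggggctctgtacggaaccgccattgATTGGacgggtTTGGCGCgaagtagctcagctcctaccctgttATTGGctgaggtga
In the stretches shown, Cdk1 carries CCAAT on 1 strand or the other 3 times, with 2 CHR and 1 E2F match. Ube2c has 6 CCAAT and 1 CHR, and Ccnb2 has 3 CCAAT and 1 CHR. In these 250 bases of Aurka only CCAAT was matched, and its 1 CHR match lies in the remaining 50 bases of the window, where Ccnb2 has a further CHR. Of the helicase pair, Mcm6 has 2 E2F and 2 CCAAT matches and no CHR, while Mcm2 has 1 CCAAT and 1 CHR.

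The first comparison set Tet2 vector against WT vector and asks how hearts of the Tet2+/- mice differ. Cell division genes tended to be higher in the Tet2 vector hearts, and no gene passed the test. By unadjusted p the foremost were Mcm2 and Mcm6 of the helicase, the large kinetochore protein gene Cenpf and the topoisomerase gene Top2a, while by fold Mki67 and Bub1b stood above both helicase genes. In limma, 18 of the 22 tested members had a log2 fold change above 0, or 81.8%, against 50.4% of the 12734 genes tested. Their median was 0.35 against 0.00 over all genes. Of the 22, 7 were under 1 CPM in WT: Ccna2, Aurka, Cdc20, Bub1b, Racgap1, Mki67 and Top2a. With 1 WT library, the filter admitted these through Tet2 libraries alone, which favours a fold change above 0. All of these were above 0 in this comparison. At a false discovery rate (FDR) of 0.05, 0 members were called, as were 0 of 12734 genes (0%), while voom run on recovered counts called 0 too. At an unadjusted p under 0.05 there were 4 members, Mcm2, Mcm6, Cenpf and Top2a, all higher, which is 18.2% of the 22 against 9.59% of all tested genes (5.06% higher and 4.53% lower). Of the 36 genes, 21 were higher in both Tet2 vector libraries than in the WT library (58.3%), and 6 were lower in both (16.7%), against 32% of the 17818 symbols each way. On the deposited blended values, where replicate differences are smaller, limma called these 4 members. It also called 2312 of the 12734 tested genes there, a share close to that of the members. Each of these counts rests on a single WT library.

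Oridonin against WT shares that single WT library. Of the 22 tested, 18 had a log2 fold change above 0, where 43.8% of all genes did, and the median was 0.42 against -0.06 over all genes. The 7 members under 1 CPM in WT, which the filter admitted through Tet2 libraries alone, are all among these 18. Limma called 0 members and 0 genes (0%), voom called 0, and at an unadjusted p under 0.05 there were 4 members, all higher (Mcm2, Bub1b, Cenpf and Top2a), against 6.21% of genes (2.69% higher and 3.53% lower). Without oridonin replicate 2 there were 0 at that p, and on the deposited blended values limma called the 4. Over all 12734 tested genes, those blended values gave 996 calls. Among the 36, 22 genes were higher in both oridonin libraries than in WT (61.1%, against 31% of all symbols) and 3 were lower in both (8.33%, against 37.5%). The 3 were Mcm7, Stmn1 and Anln, which were also lower in both Tet2 vector libraries. WT was the library with the lowest level for 19 of the 36 genes.

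The 6 genes of the MCM helicase summed to 38.4 CPM in WT, 52.1 and 46.8 CPM in Tet2 vector and 44.3 and 49.2 CPM in oridonin, but they did not all differ in 1 direction. Mcm2 (chromosome 6, 88883474 to 88898780, GRCm38) was at 3.72 CPM in WT, 7.98 and 7.17 CPM in Tet2 vector and 7.18 and 8.44 CPM in oridonin. All 4 Tet2 libraries were above WT, and vector and oridonin overlapped. The log2 fold change over WT was 1.02 with a standard error (SE) of 0.32 in Tet2 vector (limma, adjusted p = 0.459) and 1.06 with an SE of 0.32 in oridonin (limma, adjusted p = 0.709). Mcm6 (chromosome 1, 128331590 to 128359664) was at 6.23 CPM in WT, 12.7 and 12.4 CPM in Tet2 vector and 8.07 and 10.2 CPM in oridonin. It was lowest in WT and highest under vector, with no overlap among the groups. For Tet2 vector over WT its log2 fold change was 1.01 with an SE of 0.30 (limma, adjusted p = 0.442), the smallest adjusted p among the members in that comparison. Mcm3 and Mcm5, of the same ring, were also lowest in WT, at 5.37 CPM against 6.33 to 8.43 CPM for Mcm3 and at 2.25 CPM against 3.00 to 5.15 CPM for Mcm5. Mcm4 overlapped, with 8.96 CPM in WT against 7.73 to 9.91 CPM. Mcm7 went the other way, at 11.8 CPM in WT against 8.11 to 10.2 CPM in the Tet2 libraries. Its exons overlap those of Ap4m1 and Cops6 on the other strand, and the labels do not say whether reads kept their strand. Cops6, a subunit gene of the COP9 signalosome, was at 136 CPM in WT and 107 to 139 CPM in the others.

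Pcna, the clamp, differed little among the libraries. It was at 32.8 CPM in WT, 34.6 and 32.9 CPM in Tet2 vector and 32.9 and 34.0 CPM in oridonin. The 5 libraries nearly coincided, and the 95% interval for oridonin over vector ran from -0.46 to 0.43 on the log2 scale. Rrm1, the large subunit of ribonucleotide reductase, was at 15.7 CPM in WT and 16.3 to 23.3 CPM in the Tet2 libraries. Rrm2, the small subunit that is made in S phase, split by replicate: 2.25 and 0.848 CPM in Tet2 vector and 3.42 and 0.892 CPM in oridonin, with WT at 1.32 CPM. Tyms, thymidylate synthase, was at 1.6 CPM in WT and 1.71 to 2.74 CPM elsewhere.

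Cenpf (chromosome 1, 189640606 to 189688086) had the widest range in CPM of all members. It was at 1.25 CPM in WT, 70.2 and 5.54 CPM in Tet2 vector and 14.7 and 12.9 CPM in oridonin. WT was lowest, both oridonin libraries lay between the 2 vector libraries, and Tet2 vector replicate 1 stood far above all others. Over WT the log2 fold change was 3.95 with an SE of 1.32 in Tet2 vector (limma, adjusted p = 0.471) and 3.43 in oridonin (limma, adjusted p = 0.791). The same replicate 1 held the atrial markers named above and gave longer genes higher values than replicate 2, and Cenpf has 15433 bases of exon. With the trend on gene length removed, an alternative chosen after seeing the data, the log2 fold change over WT was 4.21 (limma, adjusted p = 0.23). Without replicate 1 it was 2.12 (limma, adjusted p = 0.0953). Without replicate 2 instead it was 5.78, and Cenpf was then called (limma, adjusted p = 0.00975), within a range of 0.00975 to 0.996 over all alternatives run. Bub1b, which encodes a kinase-like part of the checkpoint, was at 0.467 CPM in WT, 1.22 and 0.913 CPM in Tet2 vector and 1.44 and 1.58 CPM in oridonin. Its groups followed each other without overlap, with a log2 fold change of 1.62 and an SE of 0.63 for oridonin over WT (limma, adjusted p = 0.791). Birc5, or survivin, had 1 count in WT and 3 to 7 counts in the Tet2 libraries, and the kinetochore motor gene Cenpe had 0 counts in WT and at most 6 counts elsewhere.

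Both general markers of dividing cells were lowest in WT. Mki67 (chromosome 7, 135689784 to 135716361), which coats mitotic chromosomes, was at 0.583 CPM in WT, 2.19 and 1.04 CPM in Tet2 vector and 1.09 and 3.43 CPM in oridonin. Within each Tet2 group 1 library was well above the other, and the 2 groups overlapped. Top2a (chromosome 11, 98992943 to 99024189), which untangles sister chromatids, was at 0.133 CPM in WT, 2.83 and 0.522 CPM in Tet2 vector and 0.957 and 2.33 CPM in oridonin. The WT value stands for 2 counts, and the high and low libraries were those of Mki67. Log2 fold changes over WT were 2.92 with an SE of 1.15 for Top2a in Tet2 vector (limma, adjusted p = 0.511) and 3.20 in oridonin (limma, adjusted p = 0.791). For Mki67 they were 1.33 (limma, adjusted p = 0.652) and 1.68 (limma, adjusted p = 0.816). Hmgb2, a DNA-bending chromatin protein, was at 4.87 CPM in WT, 6.95 and 8.15 CPM in Tet2 vector and 7.93 and 4.8 CPM in oridonin, so that oridonin overlapped with both other groups. Stmn1, the spindle gene with the most counts, was at 12.2 CPM in WT, 6.63 and 10.6 CPM in Tet2 vector and 9.16 and 6.52 CPM in oridonin, with WT highest of all.

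**Figure D2:**
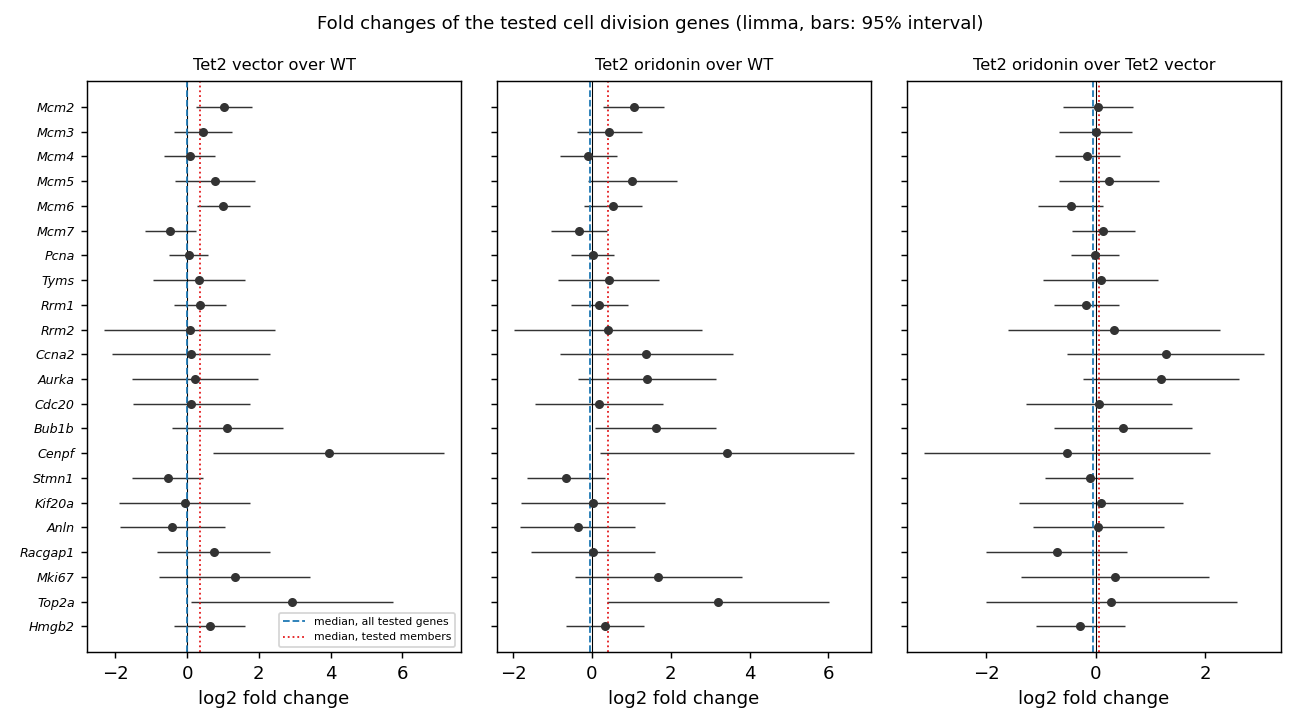
Log2 fold change (x axis) of the 22 tested genes in the 3 comparisons, with points for the limma estimate and bars for its 95% interval; dashed and dotted lines mark the medians of all tested genes and of the 22. Against WT the dotted line stands at 0.35 and 0.42, to the right of the dashed line, while for oridonin over vector it stands at 0.06 and each bar crosses 0.

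The comparison of oridonin with vector within the Tet2 hearts asks how hearts given the compound differ from those given vector. Of the 9 cyclins, kinases and partners that drive mitosis, 6 were higher in both oridonin libraries than in both vector libraries, at very low counts and without passing the test. Of the 10 helicase, clamp and nucleotide genes 0 were higher in this way and 1 was lower. Over all symbols 9.92% were higher and 16.3% lower, so the helicase, clamp and nucleotide genes lay near the general shares. Limma called 0 of 22 members and 0 of 12734 genes (0%), voom called 0 as well, and at an unadjusted p under 0.05 there were 0 members against 2.6% of genes (0.668% higher and 1.93% lower). Log2 fold changes above 0 were found for 13 of the 22, or 59.1%, against 40.2% of all genes, and the median was 0.06 against -0.05. Among the 13, Ccna2 and Aurka reached 1 CPM in the oridonin libraries alone. The filter thus admitted them through the group where they were high, which favours a fold change above 0. Of all 36 genes, 10 were higher in both oridonin libraries than in both vector libraries (27.8%, against 9.92% of all symbols). Among the 14 members under the filter it was 7, against 13.9% of all symbols under the filter, and among the 22 tested it was 3. The 10 were Cdk1, Ccna2, Ccnb1, Ccnb2, Aurka, Ube2c, Bub1, Bub1b, Kif11 and Tpx2. Lower without overlap were 2 genes, Mcm6 and Racgap1 (5.56%, against 16.3%). Since most of the 10 were not tested for want of counts, they are given below with ratios of the counts pooled over each group, scaled to the library totals, and exact 95% intervals that cover counting error only. The 10 were picked for lying higher in oridonin, which favours ratios above 1.

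Cdk1, the kinase that starts mitosis, had 6 and 8 counts in Tet2 vector and 11 and 11 in oridonin, with 3 in WT. Both oridonin libraries were above the rest, and the ratio to vector was 1.66 (0.813 to 3.51). Ccna2, or cyclin A2, had 11 and 4 counts in vector and 15 and 17 in oridonin, with 6 in WT. Its pooled ratio was 2.26 (1.19 to 4.48), and its log2 fold change was 1.28 with an SE of 0.74 (limma, adjusted p = 1). Ccnb1, or cyclin B1, had 0 counts in both vector libraries, 7 and 2 in oridonin and 1 in WT. With both vector libraries at 0 the ratio has no finite value, its exact 95% interval begins at 2.09, and oridonin replicate 2 was itself under the floor of 3 counts. The sister gene Ccnb2 had 4 and 3 counts in vector, 13 and 6 in oridonin and 7 in WT, a ratio of 2.87 (1.16 to 8.08). In WT it was as high as in 1 of the oridonin libraries.

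Aurka, a kinase of the spindle poles (chromosome 2, 172356190 to 172370535), had 8 and 9 counts in vector, 17 and 21 in oridonin and 7 in WT. The oridonin libraries stood clear of the other 3, with a ratio to vector of 2.36 (1.30 to 4.46) and a log2 fold change of 1.19 with an SE of 0.59 (limma, adjusted p = 1), whose 95% interval ran from -0.24 to 2.62. Ube2c, the ubiquitin-conjugating enzyme with which the anaphase-promoting complex marks cyclins, had 5 and 7 counts in vector, 19 and 8 in oridonin and 0 in WT, and the ratio was 2.38 (1.17 to 5.15). Ube2c shares 592 exonic bases with Tnnc2 on the other strand, a troponin gene of fast skeletal muscle that is not among the symbols analysed here. Ccna2 likewise shares 510 bases with Exosc9, which was at 13.3 CPM in WT, 15.7 and 15.9 CPM in vector and 16.8 and 13.7 CPM in oridonin. Unlike Ccna2, Exosc9 overlapped between vector and oridonin. The other 3 genes of this role overlapped between the groups. Plk1, the polo-like kinase, had 2 and 5 counts in vector and 9 and 4 in oridonin. Aurkb, the kinase of the chromosomal passenger complex, had 4 and 7 against 10 and 3. Cdc20, an activator of the anaphase-promoting complex, was at 0.837 and 1.37 CPM against 0.957 and 1.30 CPM.

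Summed over the 9 genes of cyclins, kinases and destruction, the WT library held 43 counts, the vector libraries 53 and 64 and the oridonin libraries 115 and 91. Scaled, these were 2.85 CPM in WT, 3.41 and 4.17 CPM in vector and 7.86 and 6.24 CPM in oridonin. Both oridonin sums were above all others, and 6 of the 9 genes were without overlap in that direction, against 9.92% of all symbols. Among the kinetochore genes, Bub1, a checkpoint kinase, had 2 and 0 counts in vector, 8 and 2 in oridonin and 0 in WT, a ratio of 5.29 with the wide interval of 1.13 to 49.6. Bub1b, given above, had a ratio of 1.41 (0.877 to 2.28). Of the spindle genes, Kif11, the motor that pushes the poles apart, had 9 and 6 counts in vector, 9 and 15 in oridonin and 9.2 in WT (ratio 1.69, 0.852 to 3.47). Replicate 1 had the same 9 Kif11 counts in both groups, and only scaling to the library totals separated them. Tpx2, a microtubule nucleator that binds Aurora A, had 11 and 9 counts in vector, 11 and 21 in oridonin and 5.7 in WT (ratio 1.69, 0.938 to 3.12). Its replicate 1 counts were likewise the same, 11 in both groups.

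Members that stood lower with oridonin were fewer. By the same pooled counts, ratios to vector were 0.729 (0.622 to 0.855) for Mcm6 and 0.598 (0.355 to 0.987) for Racgap1. These genes too were picked for not overlapping, and the intervals cover counting error only. Mcm6, with the values given above, had a log2 fold change of -0.46 and a 95% interval of -1.06 to 0.13 (limma, adjusted p = 1). Racgap1, a component of the central spindle that directs the contractile ring, was at 1.22 and 1.76 CPM in vector, 1.03 and 0.755 CPM in oridonin and 0.867 CPM in WT. Its log2 fold change was -0.71 with an SE of 0.53 (limma, adjusted p = 1). The other cytokinesis genes overlapped between vector and oridonin. Kif20a, a kinesin of the midzone, was at 2.06 and 0.978 CPM in vector, 1.03 and 2.26 CPM in oridonin and 1.5 CPM in WT; 1271 of its exonic bases overlap Cdc23 on the other strand, which was at 25.1 to 35.1 CPM. Kif23 had 15 and 3 counts in vector and 2 and 17 in oridonin, and Prc1, which bundles midzone microtubules, had 22 and 8 against 14 and 14. Anln, or anillin, was at 1.61 and 0.978 CPM against 1.37 and 1.24 CPM. Nusap1, a spindle protein, had 15 and 12 counts against 10 and 16.

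**Figure D3:**
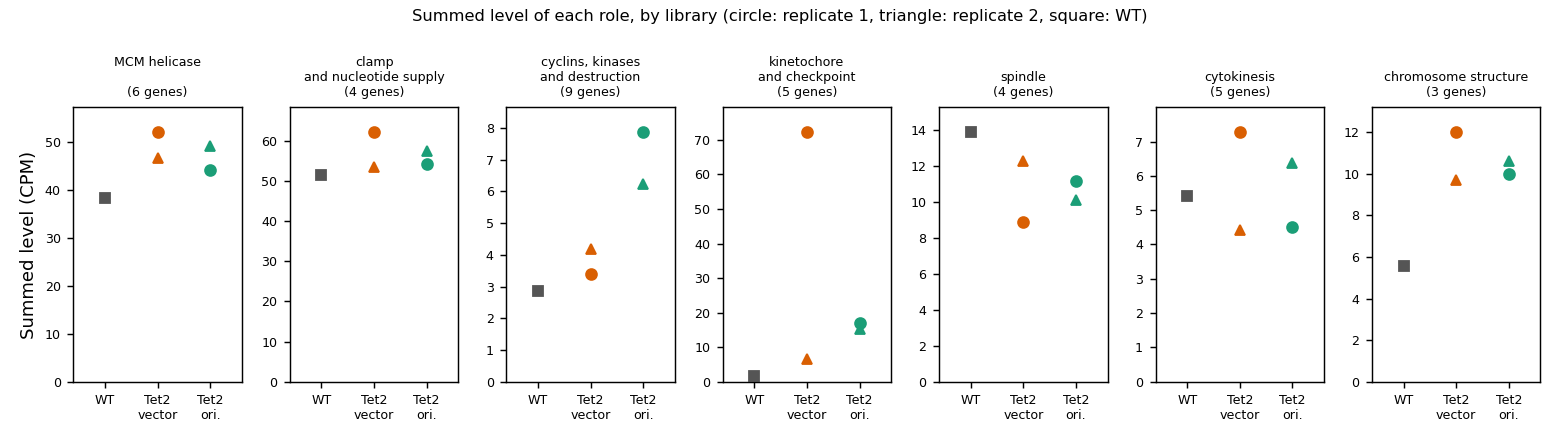
Summed level of each of the 7 roles (y axis, CPM, each panel with its own scale from 0) in the WT library (square), the Tet2 vector libraries and the oridonin libraries (circle for replicate 1, triangle for replicate 2). In the panel of cyclins, kinases and destruction, 7.86 and 6.24 CPM with oridonin lie above 3.41 and 4.17 CPM with vector, whereas in the kinetochore panel the 72.2 CPM of Tet2 vector replicate 1 include 70.2 CPM of Cenpf.

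Replicates of the Tet2 groups split in a recurring way. For 13 of the 36 genes the highest 2 of the 5 libraries were Tet2 vector replicate 1 and oridonin replicate 2, among them Mcm2, Mcm3, Mcm5, Rrm1, Kif23, Prc1, Mki67 and Top2a. For 8 genes they were both oridonin libraries: Cdk1, Ccna2, Ccnb1, Aurka, Ube2c, Bub1, Bub1b and Tpx2. The shares of all symbols with these top pairs were not counted, so the split may not be particular to these genes. Mki67 was higher in replicate 1 than in replicate 2 by 1.05 on the log2 scale in vector and the difference was -1.62 in oridonin, and Top2a had differences of 2.37 and -1.26. Kif20a went the same way, with 1.05 and -1.12. The same pair of libraries gave higher values to long genes overall and held more of 5 of the 7 fat cell markers, whose part in this split was not tested. Across the 22 tested members, the replicate difference went with log2 exon length at a Pearson r of 0.59 (Spearman rho 0.43) in vector and -0.34 (rho -0.23) in oridonin, over points that share their libraries. Mki67 has 10061 bases of exon and Top2a 9013, both in the longest bin. With the length trend removed, a setting added after seeing the data, the log2 fold change of Top2a was 3.07 for Tet2 vector over WT (limma, adjusted p = 0.263). For oridonin over WT it was 3.38 (limma, adjusted p = 0.4). Of the 9 genes of cyclins, kinases and destruction, the longest is Cdk1 with 4934 bases of exon, and none of the 9 is among the 13. The part of gene length in the levels of single members was not tested.

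**Figure D4:**
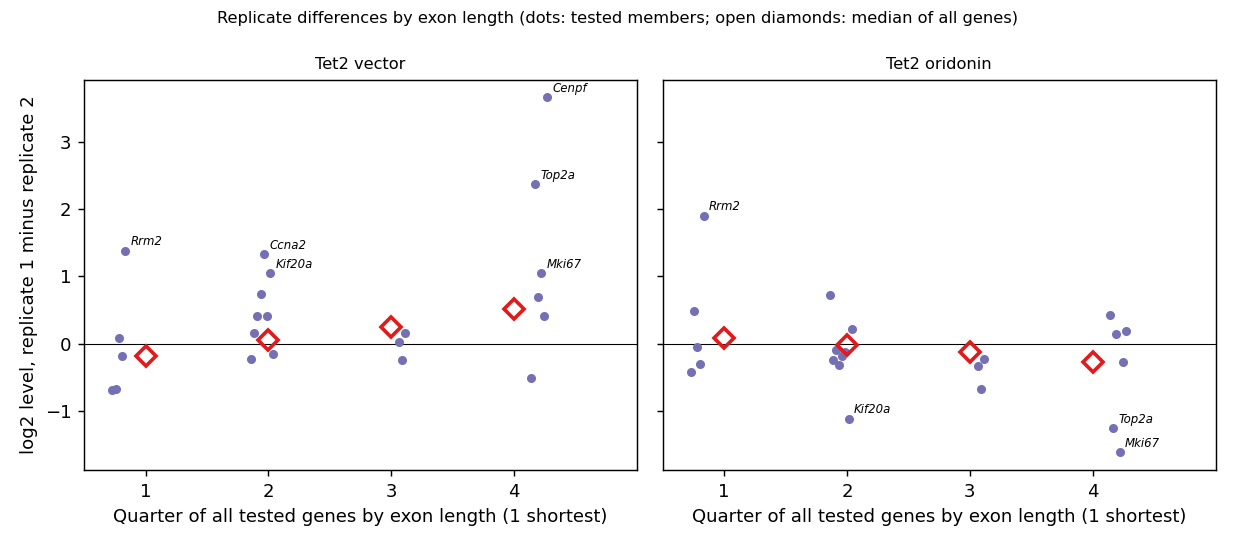
Log2 level of replicate 1 minus replicate 2 (y axis) of the tested genes, by bin of exon length, 4 equal bins over all tested genes (x axis), for Tet2 vector (left) and oridonin (right); dots are members and open diamonds the medians of all genes. The diamonds go from -0.19 to 0.51 on the left and from 0.09 to -0.27 on the right, and Cenpf, Top2a and Mki67 lie above them on the left.

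Another 150 genes of replication and mitosis, listed by function, gave the wider pathway; 146 were in the table and 93 were tested. Limma called 0 of them in each comparison. Between oridonin and vector, kinetochore and spindle genes were higher without overlap more often than all symbols, mostly at counts under the filter; the difference between lists was not tested. Of 24 kinetochore and checkpoint genes, 7 were higher without overlap and 2 lower, and of 24 spindle and cytokinesis genes, 9 were higher and 3 lower. That is 29.2% and 37.5% higher, against 9.92% of all symbols. Among the genes under the filter it was 4 of 16 (25%) and 8 of 19 (42.1%), against 13.9% of all symbols under the filter. Of those tested, log2 fold changes were above 0 for 7 of 8 and 2 of 5. Of 20 genes of origin licensing and firing, 1 was higher and 6 lower, and of 29 genes of polymerases and fork, 0 were higher and 6 lower, or 30% and 20.7% lower against 16.3% of all symbols, the latter near that share. Regulators of the G1 to S and G2 to M steps had 2 higher and 4 lower of 31, and chromosome structure and cohesion 2 higher and 3 lower of 18. In all, 21 of the 146 were higher (14.4%) and 24 lower (16.4%). The 93 tested had a median log2 fold change of -0.01 with 45 higher and 48 lower, and 0 of them had an unadjusted p under 0.05.

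Of the genes higher without overlap, 4 of the 7 of the kinetochore and 8 of the 9 of the spindle were under the filter. Spc25, a subunit of the NDC80 complex that grips microtubules, had 4 and 6 counts in vector and 16 and 10 in oridonin, with 2 in WT. Nuf2 of the same complex had 2 and 0 against 5 and 7, with 0 in WT. Nek2, a centrosome kinase, had 2 and 0 against 8 and 5, and Spag5, a spindle protein, 5 and 5 against 14 and 8. These 4 were singled out after their values were seen. Among the tested genes with the smallest p, Incenp, the scaffold of the passenger complex, was at 1.74 and 1.83 CPM in vector and 3.49 and 2.26 CPM in oridonin (log2 fold change 0.65, limma, adjusted p = 1). For Sass6, needed to build centrioles, vector gave 0.966 and 0.587 CPM and oridonin 1.09 and 2.13 CPM. Like Ccna2 and Aurka, Sass6 passed the filter through the oridonin libraries alone. The repressor gene E2f7 was at 1.09 and 0.978 CPM in vector and 1.23 and 2.20 CPM in oridonin. On the lower side, Tacc3, a spindle protein, was at 1.93 and 2.28 CPM in vector and 1.30 and 0.961 CPM in oridonin. Gins1, a subunit of the GINS complex that joins MCM in the active helicase, was at 2.25 and 1.83 CPM against 1.23 and 1.03 CPM. The condensin gene Smc4 was at 14.9 and 10.9 CPM against 2.19 and 11.2 CPM, an overlap.

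Against WT, more genes of the wider pathway were higher than lower. Tested genes under 1 CPM in WT passed the filter through Tet2 libraries alone, which favours a fold change above 0. In Tet2 vector 61 of the 93 tested were higher, with a median of 0.11, and 4 higher (Rpa3, Pola2, Rfc3 and Cdk4) and 1 lower (Rbl2) had an unadjusted p under 0.05. The 61 are 65.6%, against 50.4% of all tested genes, whereas the 5 at that p are 5.38%, below the 9.59% of all tested genes. Rpa3, a subunit of the single-strand binding protein, was at 3.15 CPM in WT, 9.01 and 8.35 CPM in vector and 6.77 and 6.24 CPM in oridonin (log2 fold change 1.45 for vector over WT, limma, adjusted p = 0.353). Its groups were ordered vector, oridonin, WT without overlap, as in Mcm6. Pola2, of the primase complex, was at 6.68 CPM in WT and 11.3 to 12.2 CPM in the Tet2 libraries, and the clamp loader gene Rfc3 at 1.57 CPM against 2.68 to 3.59 CPM. Rbl2, a pocket protein of resting cells, was at 60.7 CPM in WT and 29.1 to 41.8 CPM elsewhere. Zwint and Spc24, both of the kinetochore, were next on the lower side, at 58.5 CPM in WT and 42.0 to 47.0 CPM elsewhere for Zwint, and at 5.70 CPM and 1.93 to 4.43 CPM for Spc24. In oridonin over WT, 55 of the 93 were higher, with a median of 0.09, and 3 higher (Rpa3, Pola2 and Ccnd1) had an unadjusted p under 0.05. The 55 are 59.1%, against 43.8% of all tested genes, and the 3 are 3.23%, below the 6.21% of all tested genes. Ccnd1, or cyclin D1, was at 24.2 CPM in WT, 86.7 and 33.3 CPM in vector and 54.2 and 75 CPM in oridonin, again with replicate 1 of vector and replicate 2 of oridonin high. The chromatin assembly gene Chaf1a was at 2.81 CPM in WT and 1.37 to 2.19 CPM in the rest, and E2f3, an S-phase activator, at 10.5 CPM and 7.48 to 9.46 CPM.

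Markers of the cell types that could carry division genes were read beside these results. The 12 macrophage and monocyte markers summed to 407 CPM in WT, 726 and 478 CPM in Tet2 vector and 446 and 438 CPM in oridonin. Like the Mki67 and Cenpf levels, the macrophage sum was lowest in WT, but oridonin lay below vector. Its largest part was Lyz2, at 179 CPM in WT, 338 and 215 CPM in vector and 171 and 173 CPM in oridonin. Of the 12, 3 were lower without overlap in oridonin than in vector (25%, against 16.3% of all symbols). Only 1, Ccr2, was higher (8.33%, against 9.92%). The 7 fibroblast markers summed to 912 CPM in WT, 1390 and 1470 CPM in vector and 764 and 802 CPM in oridonin, with vector above oridonin as for Mcm6, and all 7 were lower without overlap in oridonin (100%, against 16.3% of all symbols). The 7 endothelial markers were at 1030 CPM in WT, 966 and 931 CPM in vector and 1040 and 1130 CPM in oridonin. Both oridonin sums were above both vector sums, but of the 7 genes only Cdh5 was higher without overlap (14.3%, against 9.92% of all symbols), and Emcn was lower. Lymphocyte markers were scarce. The 8 T cell markers summed to 2.27 CPM in WT, 3.99 and 3.06 CPM in vector and 4.38 and 3.22 CPM in oridonin, none of them past the filter. The 6 B cell markers summed to 0.667 CPM in WT, 0.322 and 1.57 CPM in vector and 2.05 and 2.40 CPM in oridonin, higher in both oridonin libraries than in the other 3. Of the 6, 4 were higher in both oridonin than in both vector libraries (66.7%, against 9.92% of all symbols and 13.9% of those under the filter). In Tet2 vector replicate 1, 3 were at 0. None of the 6 B cell markers passed the filter, and their highest count in any library was 14. Neutrophil markers, of which 6 of 7 were in the table, were at 3.45 CPM in WT, 8.63 and 14.3 CPM in vector and 6.43 and 7.62 CPM in oridonin. Smooth muscle and pericyte markers were at 1230 CPM in WT, 1380 and 1030 CPM in vector and 1010 and 826 CPM in oridonin.

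Red cell markers, 7 of 8 in the table, summed to 386 CPM in WT, 502 and 265 CPM in vector and 478 and 466 CPM in oridonin, a sum in which Tfrc went against the rest. Of the 7, 5 were higher in both oridonin libraries than in both vector libraries (71.4%, against 9.92% of all symbols), beside the 6 of 9 cyclins, kinases and partners, and 6 were lower in both vector libraries than in WT (85.7%, against 32%). Hba-a1, an alpha-globin, was at 289 CPM in WT, 196 and 120 CPM in vector and 315 and 251 CPM in oridonin. Alas2, the erythroid enzyme that starts haem synthesis, was at 25.8 CPM in WT, 14.0 and 7.37 CPM in vector and 18.0 and 17.1 CPM in oridonin. Tfrc, the transferrin receptor, which other dividing cells also make, was at 17.4 CPM in WT, 254 and 118 CPM in vector and 90.5 and 146 CPM in oridonin.

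Fat cell markers summed to 562 CPM in WT, 509 and 724 CPM in vector and 696 and 618 CPM in oridonin, mostly from Fabp4, which endothelial cells make as well, at 459 to 684 CPM. Of the 7 genes, Adipoq, Plin1, Cidec, Cfd and Car3 were highest in Tet2 vector replicate 1 and oridonin replicate 2, the pair that was high for Mki67 and Top2a. Car3 was at 0.333 CPM in WT, 12.5 and 0.326 CPM in vector and 0.273 and 3.02 CPM in oridonin. Cfd, or adipsin, was at 0.716 CPM in WT, 4.89 and 0 CPM in vector and 0.0684 and 2.47 CPM in oridonin. The marker genes given singly here were chosen after their values were seen. The part of these cell types in the levels of the division genes was not tested.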

How the data were processed

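Poly-A RNA from hearts was made into libraries with a NEBNext Ultra kit (per the protocols in the labels), and mm10 was the genome build (per the submitters' processing notes); tools, annotation and strand setting: not given in the sources used here. What the authors deposited is 1 table of log2 values for 17818 symbols in 5 columns, each of which was tied to a sample by its label. From the values, each is log2 of CPM, with 0.5 added to each count. Each deposited Tet2 value blends its library and the partner replicate on the log2 scale, with weights of 0.75 and 0.25. Undoing this gave a whole count within 0.01 for 99.92% to 99.94% of genes, against 9.06% to 10.4% as deposited. The WT column, whole for 33.48% of genes, was used as deposited.

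Limma 3.58.1 in R 4.3.3 (trend, robust empirical Bayes) was fitted to the unmixed values of all 5 libraries with group as the only term, on 12734 genes of at least 1 CPM in at least 2 libraries. Both residual degrees of freedom come from Tet2 libraries, so WT is taken to vary as they do. P-values were adjusted by Benjamini-Hochberg over all tested genes at an FDR of 0.05. The calculation was tested on simulated data with large changes, little spread, no gene length trend and no blend. That test therefore does not cover these features of the libraries. Deviations of same-numbered Tet2 libraries from their group means correlated at -0.296 over tested genes, so the numbers were not taken to pair samples. Exon lengths and overlaps came from the GENCODE annotation of GRCm38, with a length for 96.7% of tested genes. Exact intervals used scipy 1.17.1.

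Genes given in full were Mki67, Top2a, Cdk1, Ccnb1, Pcna, Stmn1, Hmgb2, each member at an unadjusted p under 0.05, each without overlap between oridonin and vector at a fold of 1.5 or more, and the member with the most counts in each role; from the wider pathway, up to 3 per comparison and direction by smallest p. Other members are given by counts or ranges. Members, lists and rules were chosen with earlier results of these data known. Alternatives are in the closing section.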

Additional observations from a re-analysis of the deposited data

How the results depend on the processing

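Median log2 fold changes of the members stayed above 0 over WT in all settings run. For oridonin over vector the median of 0.06 turned to -0.17 without Tet2 vector replicate 2 (all genes -0.14) and to -0.06 without oridonin replicate 2, moves under the replicate spread of 0.277. On the deposited mixed values limma called 4 members in Tet2 vector and 4 in oridonin over WT. Of the 12734 tested genes it called 2312 and 996 there. At an unadjusted p under 0.05 were 12, 11 and, for oridonin over vector, 4 members, against 4728, 3981 and 2204 genes. The mix shrinks replicate differences by construction. Voom gave 2 members at that p in Tet2 vector and 1 in oridonin over WT, against 1120 and 732 genes. Without a filter there was 1 (Ccnb1) for oridonin over vector, against 497 of 17818 genes. A fit with the replicate block called 0 members in each comparison. It called 10 genes in Tet2 vector over WT, 6 in oridonin over WT and 9 in oridonin over vector. At an unadjusted p under 0.05 it gave 2, 2 and, for oridonin over vector, 0 members, against 579, 387 and 238 genes. With the crossed pairing (vector 1 with oridonin 2), added after seeing the data, 0 members and 48 genes were called between oridonin and vector. Leaving out 1 library in turn gave 0 to 1 calls in Tet2 vector over WT, the 1 being Cenpf without Tet2 vector replicate 2. Members at an unadjusted p under 0.05 then ranged from 3 to 5 in Tet2 vector over WT, from 0 to 1 in oridonin over vector (Cenpf, without either vector library) and from 0 to 5 in oridonin over WT, where 0 came without oridonin replicate 2. With 1 library left, its group is assumed to vary like the others; why these counts moved was not tested. With the gene length trend removed, also added later, 0 members were called. Genes called there were 0 in Tet2 vector over WT, 1 in oridonin over WT and 2 in oridonin over vector. Totals without mitochondrial genes moved the median of all genes from 0.00 to 0.10 in Tet2 vector over WT and from -0.06 to 0.05 in oridonin over WT. Of 160 values of single named members, 151 stayed on their side of the threshold and 9 passed it, none with a change of sign. The 3 count floor limits Ccnb1, Bub1, Cenpe and Ube2c, and other members in some libraries. In WT 9 of the 36 members had at most 3 counts, among them Top2a with 2.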
